A study of Mus musculus with 12 samples.

Results

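The genes described here encode secreted TGF-β and BMP ligands, together with proteins that hold such ligands latent, process them or block them, and their transcripts were followed from mouse embryonic stem cells to cardiomyocytes. There are 10 of them, Tgfb1, Tgfb2, Tgfb3, Inhba, Bmp2, Bmp4, Fst, Grem1, Ltbp1 and Bmp1, out of 18193 genes that the array's annotation names by a probe set of their own. They were taken by exact symbol, which found 20 probe sets, and each gene was read from its probe set with the highest mean signal over the 12 arrays. RNA came from the CGR8 murine embryonic stem cell line at 4 stages with 3 arrays each. The study describes the arrays of a stage as independent samplings. ES-LIF(+) cells were kept undifferentiated with leukemia inhibitory factor (LIF) in 7.5% serum, and for ES-LIF(-) the factor was withdrawn for 48 h. Cardiopoietic cells (CP) and cardiomyocytes (CM) both descended from cells treated with a cocktail of recombinant growth factors and interleukins, and both were purified on Percoll. CP were collected after 5 days in 3% serum with 30 ng/ml TNFα, and CM after 9 days in 20% serum. The cocktail itself held BMP at 5 ng/ml and TGFβ at 2.5 ng/ml. The cells of both later stages had thus been given proteins of this family before their own transcripts were measured. Time, serum, TNFα, cocktail and purification change together between the stages and cannot be told apart.

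TGF-β family ligands are dimers that bring type I and type II serine/threonine kinase receptors together, and the receptors then phosphorylate SMAD transcription factors. TGF-β1, TGF-β2 and TGF-β3 are secreted with a propeptide that keeps them inactive and that latent TGF-β binding proteins fasten to the extracellular matrix, while BMPs are active without that step and are instead restrained by secreted antagonists. In the embryo, BMP2 and BMP4 take part in setting aside cardiac mesoderm, and TGF-β2 acts in the cushions from which heart valves form.

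Promoter sequence is shown for 3 genes with different courses. They are Tgfb2 (high only in CM), Inhba (higher at each step after LIF withdrawal) and Grem1 (highest mean in CP). Each window holds the 250 bases before a RefSeq transcription start on build GRCm38.p6, written 5′ to 3′ on the gene's strand. Capitals mark matches, on either strand, to TATAAA (the TATA box), CCAAT (the CCAAT box), CAGAC (the SMAD box), TGACG (the core of the CRE) and TGANTCA (the AP-1 site).
Tgfb2 chr1:186705990-186706239, minus strand: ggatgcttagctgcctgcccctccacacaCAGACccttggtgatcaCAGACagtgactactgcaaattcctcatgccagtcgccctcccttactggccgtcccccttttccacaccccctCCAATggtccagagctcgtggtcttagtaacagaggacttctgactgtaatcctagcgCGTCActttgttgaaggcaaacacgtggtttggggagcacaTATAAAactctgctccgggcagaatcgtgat
Inhba chr13:16011601-16011850, plus strand: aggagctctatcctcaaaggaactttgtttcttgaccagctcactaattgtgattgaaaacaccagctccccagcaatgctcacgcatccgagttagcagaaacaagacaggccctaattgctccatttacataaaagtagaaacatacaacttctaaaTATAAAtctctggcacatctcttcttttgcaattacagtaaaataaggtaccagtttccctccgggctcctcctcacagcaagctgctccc
Grem1 chr2:113758649-113758898, minus strand: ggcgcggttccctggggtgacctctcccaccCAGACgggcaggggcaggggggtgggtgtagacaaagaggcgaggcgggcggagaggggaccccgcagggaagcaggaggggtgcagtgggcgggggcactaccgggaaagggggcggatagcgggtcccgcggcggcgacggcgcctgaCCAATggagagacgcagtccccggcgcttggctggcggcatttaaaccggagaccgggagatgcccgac
The Tgfb2 window held a TATA box beginning 31 bases before the start, a CCAAT box at 130, SMAD boxes at 221 and 204, and a CRE core on the other strand at 72. In the Inhba window the search found a TATA box at 91 and no other match. The Grem1 window held a CCAAT box at 69 and a SMAD box at 219, and it had 72% G or C and 24 CpG dinucleotides, against 43.2% and 3 in the Inhba window and 53.6% and 8 in the Tgfb2 window. No match in these windows overlapped another. Of 32841 mouse windows of the same length, 12.4% held TATAAA, 33.9% CCAAT, 42.2% CAGAC, 17.8% TGACG and 6.75% TGANTCA. A match describes the letters of a window and does not show that a factor binds there. RefSeq windows were found for 6 of the 10 genes.

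Signals are linear intensities that the authors scaled, and each array had a trimmed mean near 497. The signal of the median probe set ran from 101 to 111 in ES-LIF(+), from 104 to 110.2 in ES-LIF(-), from 129 to 136 in CP and from 128 to 144 in CM, and a signal near or under that median is close to background. Arrays correlated between 0.774 and 0.974 in pairs, and no array was a copy of another. A difference is given as log2(signal + 16) with its standard error, and a gene is called changed where limma's Benjamini-Hochberg adjusted p was under 0.05 and the fold above 1.5. All 10 genes were among the 13156 tested, since their signal passed the array median on at least 3 arrays. Bmp2 and Tgfb3 passed it on no array of either ES stage, Grem1 on 1 and Inhba on 2 of those 6 arrays, so these 4 entered the test through CP and CM, and counts over the 10 genes are a description of the set.

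Transcripts of the set were higher in CM than in ES-LIF(+) for each of the 10 genes, and the mean signal was highest in CM for 9 of them. Grem1 was the exception, with its highest mean in CP. Every gene changed across the 4 stages by limma's moderated F test (adjusted p between 1.59e-10 for Grem1 and 3.67e-06 for Bmp2), where 73.2% of all tested genes did. The genes fell into different time courses. Tgfb2 in CP was at 14.4% of its CM mean, Bmp2 at 28.4% and Inhba at 37.7%. In contrast, Tgfb3, Grem1, Ltbp1 and Bmp1 had already reached 70.3% or more of their highest stage mean in CP. Bmp4, Tgfb1, Tgfb2 and Fst were read above the array median on every array, undifferentiated cells included. In RNA pooled over many cells, purified or not, more cells of a type that makes a transcript and more transcript per cell cannot be told apart.

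**Figure D1:**
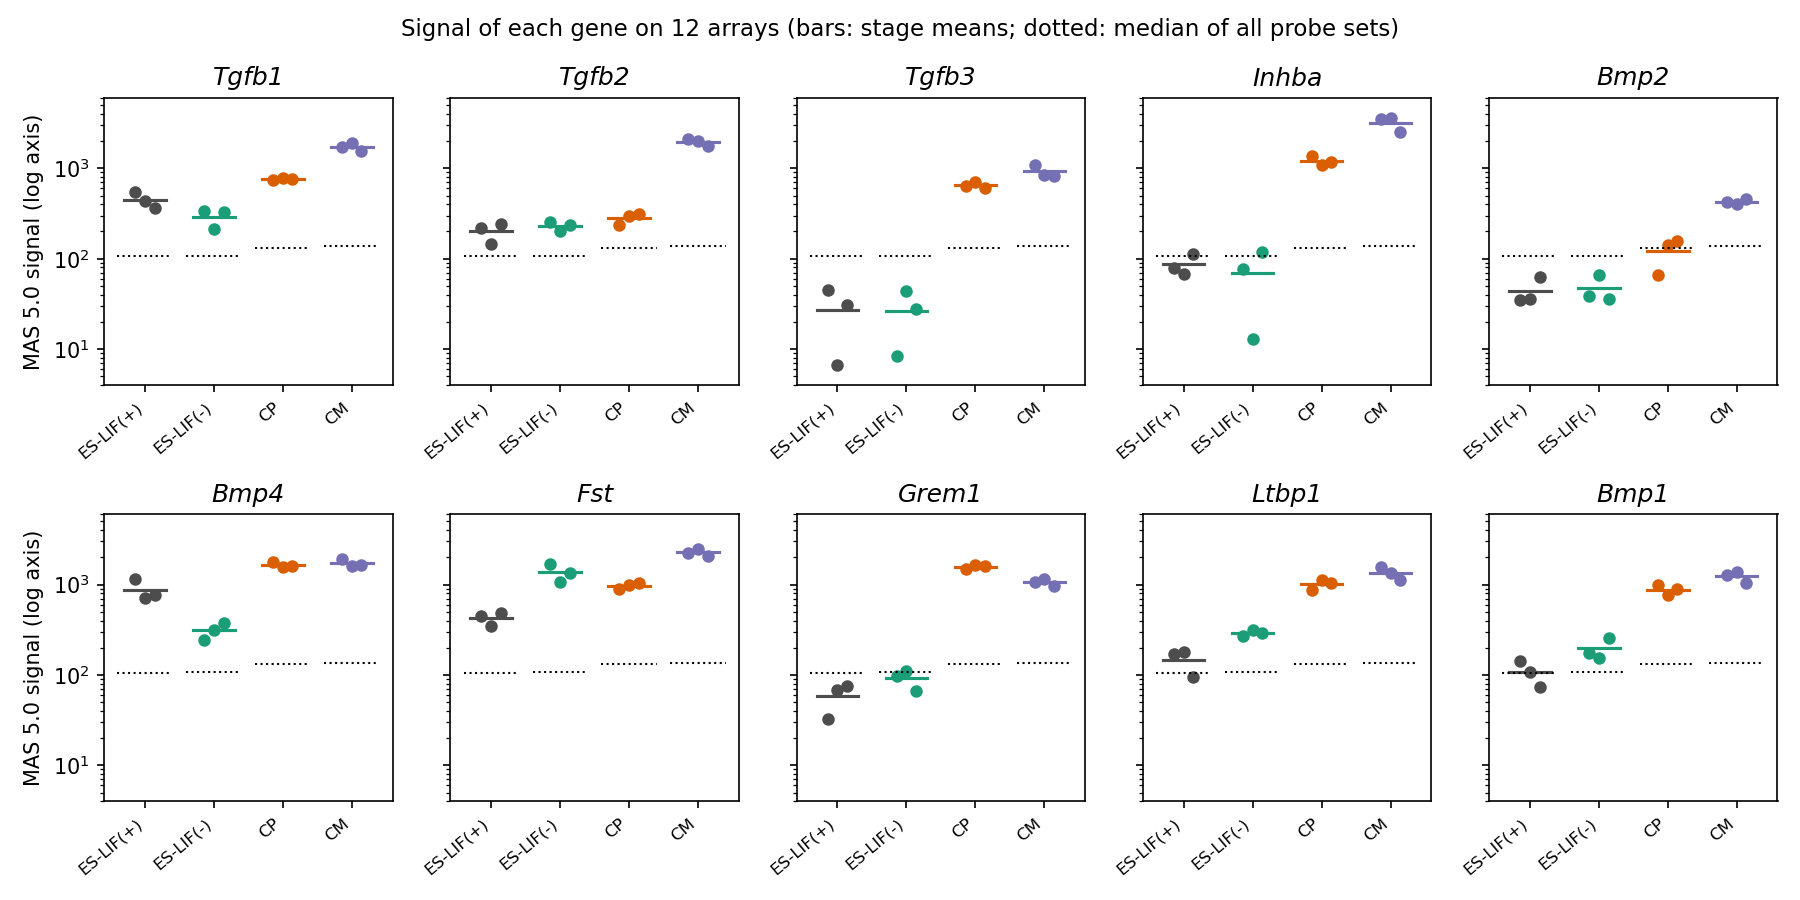
MAS 5.0 signal (log axis) of each of the 10 genes on the 12 arrays, 3 points per stage, with a bar at the stage mean and a dotted line at the mean array median of all probe sets. Tgfb3, Inhba, Bmp2 and Grem1 lie near or under the dotted line in ES-LIF(+) and ES-LIF(-), and Tgfb2 leaves the level of the other stages only in CM.

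The TGF-β isoforms came up at different stages. Tgfb1, the most widely expressed isoform, read 548, 431 and 360.0 in ES-LIF(+), 335, 215 and 327 in ES-LIF(-), 737, 786 and 767 in CP, and 1712, 1886 and 1563.5 in CM. The CM arrays stood above all others and the CP arrays above both ES stages. The rise was 0.77 ± 0.17 in CP (SE, adjusted p = 0.00149) and 1.93 ± 0.17 in CM (adjusted p = 1.11e-07) against ES-LIF(+), and 1.15 ± 0.17 in CM against CP (adjusted p = 9.47e-05). Without LIF, Tgfb1 fell by 0.59 (adjusted p = 0.0333), but this call was lost without the first ES-LIF(+) array (−0.44, adjusted p = 0.141), without the second (−0.60, adjusted p = 0.0709) and without the second ES-LIF(-) array (−0.39, adjusted p = 0.139). When arrays were centred on their medians, the rise of Tgfb1 in CP was 0.49 (adjusted p = 0.0236), which is under the fold needed for a call.

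Tgfb2, the isoform best known from cardiac cushions, read 220.3, 146 and 243 in ES-LIF(+), 254, 205 and 235 in ES-LIF(-), 236, 297 and 315 in CP, and 2099, 2006 and 1766 in CM. The first 3 stages overlapped, and the lowest CM array was far above the highest array of any other stage. In CM, Tgfb2 rose by 3.20 ± 0.18 against ES-LIF(+) (adjusted p = 8.61e-10) and by 2.73 ± 0.18 against CP (adjusted p = 4.02e-08), the largest difference between CM and CP among the 10 genes. The difference between CP and ES-LIF(+) was 0.47 (adjusted p = 0.0416), under the fold needed for a call, and it was called only without the third ES-LIF(+) array (0.60, adjusted p = 0.0174).

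Tgfb3 was read under the array median on all 6 ES arrays, with 44.5, 6.6 and 31.1 in ES-LIF(+) and 8.4, 43.9 and 27.6 in ES-LIF(-), and at 635, 702 and 608 in CP and 1093, 844 and 832 in CM. Unlike Tgfb2, it was near its highest level already in CP. Against ES-LIF(+), the difference was 4.05 ± 0.36 in CP (adjusted p = 3.54e-07) and 4.54 ± 0.36 in CM (adjusted p = 3.43e-08). Because the ES signals are near 0, the size depends on the constant added before the logarithm, and with 1 and 64 in place of 16 the rise in CP was 4.86 and 2.98. The CM arrays lay above the CP arrays, but the difference of 0.49 did not pass the test (adjusted p = 0.33).

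Inhba encodes the βA subunit that forms activin A as a dimer, a ligand that signals through SMAD2 and SMAD3 as the TGF-β isoforms do. Its signal was 78.0, 68.3 and 113 in ES-LIF(+), 76.7, 12.8 and 118 in ES-LIF(-), 1364, 1080.5 and 1186 in CP, and 3532, 3584 and 2511 in CM. The ES stages overlapped each other near the array median, and each later stage stood clear of the one before. Against ES-LIF(+), Inhba gained 3.60 ± 0.39 in CP (adjusted p = 3.22e-06) and 4.98 ± 0.39 in CM (adjusted p = 3.81e-08), the largest rise in CM among the 10 genes. With 64 as the added constant it was 4.44, and with 1 it was 5.21, below the 5.36 of Tgfb3. Averaged with the second Inhba probe set, which stayed under the filter, the rise was 1.75 in CP and 2.597 in CM, and Inhba was then not the largest. The step of 1.38 between CM and CP passed (adjusted p = 0.014), but not without the second CM array (1.29, adjusted p = 0.0504) or with 1 as the constant (1.39, adjusted p = 0.066). The βB subunit gene Inhbb, a different ligand gene singled out after its values were seen, averaged 591 in CP and 503 in ES-LIF(+), and 517 in CM against 503 in ES-LIF(+), and neither difference passed. In ES-LIF(-) Inhbb averaged 61.7, against 503 in ES-LIF(+), and fell by 2.76 (adjusted p = 1.01e-06), while Inhba did not pass there (−0.50, adjusted p = 0.49).

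Bmp2 and Bmp4, close relatives that bind the same BMP receptors, differed in their course. Bmp2 read 34.7, 35.9 and 62.6 in ES-LIF(+), 38.6, 66.4 and 35.9 in ES-LIF(-), 65.2, 142 and 158 in CP, and 422, 407 and 457 in CM. The ES arrays lay under the array median and overlapped, the CP arrays were spread widely around it, and the CM arrays stood apart from the rest. Bmp2 rose by 2.91 ± 0.33 in CM against ES-LIF(+) (adjusted p = 1.85e-06) and by 1.77 ± 0.33 in CM against CP (adjusted p = 0.000744). Its rise of 1.14 ± 0.33 in CP against ES-LIF(+) (adjusted p = 0.0101) was lost without the third CP array (0.94, adjusted p = 0.0516), and the lowest CP array lay within the range of ES-LIF(-).

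Bmp4 was well above the array median in undifferentiated cells, at 1143, 707 and 761 in ES-LIF(+), and lower without LIF, at 244, 312 and 380 in ES-LIF(-). In CP it read 1793.5, 1577 and 1594, and in CM 1933, 1596 and 1633.5. Bmp4 and Tgfb1 were the genes of the set called lower than ES-LIF(+) without LIF and higher at both later stages. The fall of Tgfb1 was smaller (−0.59, adjusted p = 0.0333) and its call was lost without some single arrays. The fall of Bmp4 in ES-LIF(-) was −1.42 ± 0.17 (adjusted p = 7.16e-05) against ES-LIF(+). Its rise against ES-LIF(+) was 0.94 ± 0.17 in CP (adjusted p = 0.000371) and 0.997 ± 0.17 in CM (adjusted p = 0.000134). Against ES-LIF(-), the rise in CP was 2.37 (adjusted p = 4.77e-08). CM and CP overlapped and differed by 0.05 (adjusted p = 0.853).

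The antagonist genes Fst and Grem1 differed from each other in their course. Fst encodes follistatin, which binds activins almost irreversibly and some BMPs more weakly. It read 454, 350.1 and 482 in ES-LIF(+), 1704, 1080.0 and 1350.3 in ES-LIF(-), 892, 989 and 1028 in CP, and 2237, 2468 and 2097 in CM. All ES-LIF(-) arrays were above all ES-LIF(+) arrays, and Fst rose by 1.64 ± 0.15 without LIF (adjusted p = 5.81e-06), or by 1.34 on its second probe set. In CP the rise over ES-LIF(+) was 1.16 ± 0.15 (adjusted p = 1.65e-05), and in CM it was 2.37 ± 0.15 (adjusted p = 3.55e-09). The CP arrays lay below the ES-LIF(-) arrays by 0.48 (adjusted p = 0.0156), short of the fold needed for a call. A second Fst probe set read 859 in CP and 813 in ES-LIF(-) on average and gave no such difference (0.11, adjusted p = 0.619), so the order of these stages depends on the probe set.

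Grem1 encodes gremlin 1, a secreted antagonist of BMP2, BMP4 and BMP7. It read 32.6, 67.3 and 75.1 in ES-LIF(+), 98.6, 109 and 67.2 in ES-LIF(-), 1482, 1642 and 1598 in CP, and 1064, 1152 and 956 in CM. The ES arrays were near or under the array median, and all CP arrays were above all CM arrays. Its rise of 4.47 ± 0.22 in CP (adjusted p = 6.32e-10) was the largest of the set at that stage with 16 as the added constant, and in CM it was 3.90 ± 0.22 (adjusted p = 1.02e-09), both against ES-LIF(+). With 64 the rise in CP was 3.76, and with 1 it was 4.82, next to 4.86 for Tgfb3. The difference between CM and CP, −0.57, did not pass (adjusted p = 0.0601), although the 3 arrays of each stage did not overlap. In ES-LIF(-) the difference of 0.57 (adjusted p = 0.117) was called only without the third ES-LIF(+) array (0.74, adjusted p = 0.0493).

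Ltbp1 and Bmp1 act on ligands outside the cell. Ltbp1 encodes a latent TGF-β binding protein, and Bmp1, in spite of its name, an astacin-type metalloprotease that trims procollagens, the BMP antagonist chordin and latent TGF-β binding protein 1 itself. Ltbp1 read 170.0, 178 and 93.8 in ES-LIF(+), 266, 314 and 292 in ES-LIF(-), 864, 1116 and 1038.5 in CP, and 1574, 1338 and 1121 in CM. The ES-LIF(-) arrays lay between the ES-LIF(+) and the CP arrays without overlap. The rise was 0.95 ± 0.20 in ES-LIF(-) (adjusted p = 0.00502), 2.68 ± 0.20 in CP (adjusted p = 5.57e-08) and 3.09 ± 0.20 in CM (adjusted p = 3.8e-09), each against ES-LIF(+), and CM differed from CP by 0.41 (adjusted p = 0.135).

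Bmp1 read 143, 108 and 72.7 in ES-LIF(+), 176, 155 and 258 in ES-LIF(-), 977.5, 763 and 888 in CP, and 1282, 1370.0 and 1053 in CM. Its course was that of Ltbp1, a step without LIF and a larger one in CP. Its rise over ES-LIF(+) was 2.88 ± 0.22 in CP (adjusted p = 6.69e-08) and 3.37 ± 0.22 in CM (adjusted p = 3.97e-09), and CM differed from CP by 0.49 (adjusted p = 0.101). The rise of 0.79 in ES-LIF(-) (adjusted p = 0.0271) was lost without the second ES-LIF(+) array (0.81, adjusted p = 0.0568), the third (0.57, adjusted p = 0.0952) or the third ES-LIF(-) array (0.59, adjusted p = 0.118). A second tested probe set for Bmp1 rose less, by 1.74 in CP (adjusted p = 0.000174) and 2.08 in CM (adjusted p = 1.77e-05), and gave −0.26 in ES-LIF(-) (adjusted p = 0.65), with mean signals of 47.6 in ES-LIF(-) and 62.2 in ES-LIF(+), both under the array median.

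Counted by comparison, LIF withdrawal raised Fst, Ltbp1 and Bmp1 and lowered Bmp4 and Tgfb1, so 3 of 10 genes were called higher and 2 lower, where 4.04% and 3.68% of all tested genes were. In CP against ES-LIF(+), 9 genes were called higher and 0 lower, with Tgfb2 not called, where 18.9% of all tested genes were higher and 13.4% lower. In CM against ES-LIF(+), 10 were higher and 0 lower, where the shares among all genes were 25.8% and 24%. Between CM and CP, Tgfb1, Tgfb2, Inhba, Bmp2 and Fst were higher, 5 of 10, and 0 were lower, against 9.14% and 10.5% of all genes. The arrays of both stages did not overlap for 3 genes higher and 2 lower in ES-LIF(-) (17.6% and 13.7% of all genes), 9 higher and 0 lower in CP (30.8% and 29.9%), and 10 higher and 0 lower in CM (35.4% and 33.9%), each against ES-LIF(+). Between CM and CP this held for 8 higher and for Grem1 as the 1 lower (22.1% and 28% of all genes). The median difference over the 10 genes was 0.13 in ES-LIF(-), 1.92 in CP and 3.14 in CM, each against ES-LIF(+), and 0.82 in CM against CP, where the medians over all tested genes were 0.03, 0.04, 0.06 and −0.04. Against ES-LIF(-) in place of ES-LIF(+), 8 genes were called higher in CP, where 18.4% of all genes were, and 10 in CM, where 24.4% were. None was lower in either, where 14.6% and 24.5% of all genes were. The comparisons with one ES stage share its arrays.

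**Figure D2:**
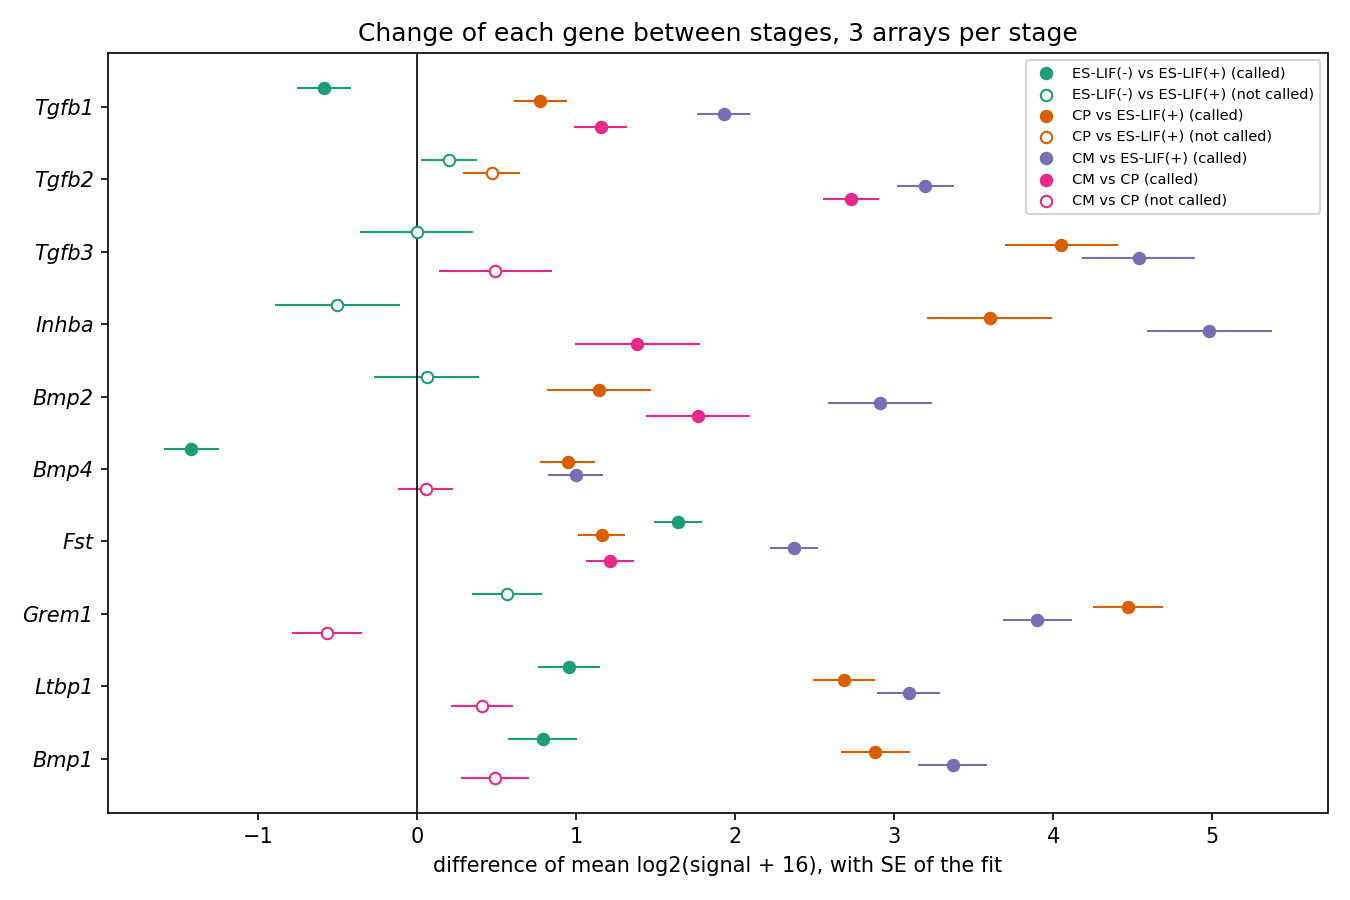
Difference of mean log2(signal + 16) between stages for the 10 genes, with the standard error of the fit (3 arrays per stage). Filled points were called (adjusted p under 0.05 and fold above 1.5) and open points were not, and all 10 CM points against ES-LIF(+) are filled, from 0.997 for Bmp4 to 4.98 for Inhba.

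The balance of calls over all genes depends on how arrays are scaled. Of the genes called in CP against ES-LIF(+), 58.5% were higher with the authors' scaling, 47% after quantile normalization and 30.8% after centring each array on its median, and in CM against ES-LIF(+) 51.8%, 43.9% and 33.5%. Median centring moved the median of all genes to −0.24 in CP and −0.26 in CM. The 10 genes kept their direction under both scalings in the comparisons with ES-LIF(+) and between CM and CP, and 9 were called higher in CP against ES-LIF(+) with the authors' scaling and 8 after centring.

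Ordered by mean signal, neighbouring stages had an adjusted p under 0.05 at every step for 2 genes, on their brightest probe sets. Tgfb1 ran from CM (1720.4 ± 161, SD, n = 3) through CP (763 ± 24.7) and ES-LIF(+) (446 ± 94.7) down to ES-LIF(-) (292 ± 67.4), and Fst ran from CM (2267 ± 188) through ES-LIF(-) (1378 ± 313) and CP (969.6 ± 70.2) down to ES-LIF(+) (429 ± 69.5). The lowest step of Tgfb1 lost its call in 10 of 25 other settings, not all of which gave a p for that pair. The step of Fst between ES-LIF(-) and CP was under the fold needed for a call and absent from its second probe set. CM and CP arrays overlapped for Bmp4. For Tgfb3, Bmp1 and Ltbp1 all CM arrays were above all CP arrays, and for Grem1 all were below (1057.5 ± 98.1 in CM and 1574 ± 82.5 in CP), but these differences did not pass the adjusted p. The ES stages overlapped and did not pass for Bmp2, Tgfb2, Tgfb3, Inhba and Grem1. Tgfb2 overlapped among 3 stages, with 203 ± 50.8 in ES-LIF(+), 231.5 ± 25.03 in ES-LIF(-) and 283 ± 41.3 in CP.

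Of the 20 probe sets, 16 passed the filter, and the second reading of a gene mostly had the same direction. The 4 Tgfb2 probe sets gave rises in CM between 2.76 and 3.20 against ES-LIF(+), and all 4 were called. For Fst the second probe set rose by 1.34 in ES-LIF(-), 1.44 in CP and 2.64 in CM. A second Tgfb1 probe set rose by 0.79 in CP (adjusted p = 0.0301) and 0.87 in CM (adjusted p = 0.0133), but showed neither the fall without LIF (−0.04, adjusted p = 0.953) nor the step between CM and CP (0.09, adjusted p = 0.851). Its mean signal was 160.1 in CP and 169 in CM, against 86.5 in ES-LIF(+), close to the array medians. The other Inhba probe set, 2 of Ltbp1 and 1 of Bmp1 did not pass the filter, and Bmp2, Bmp4, Tgfb3 and Grem1 had a single probe set each.

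**Figure D3:**
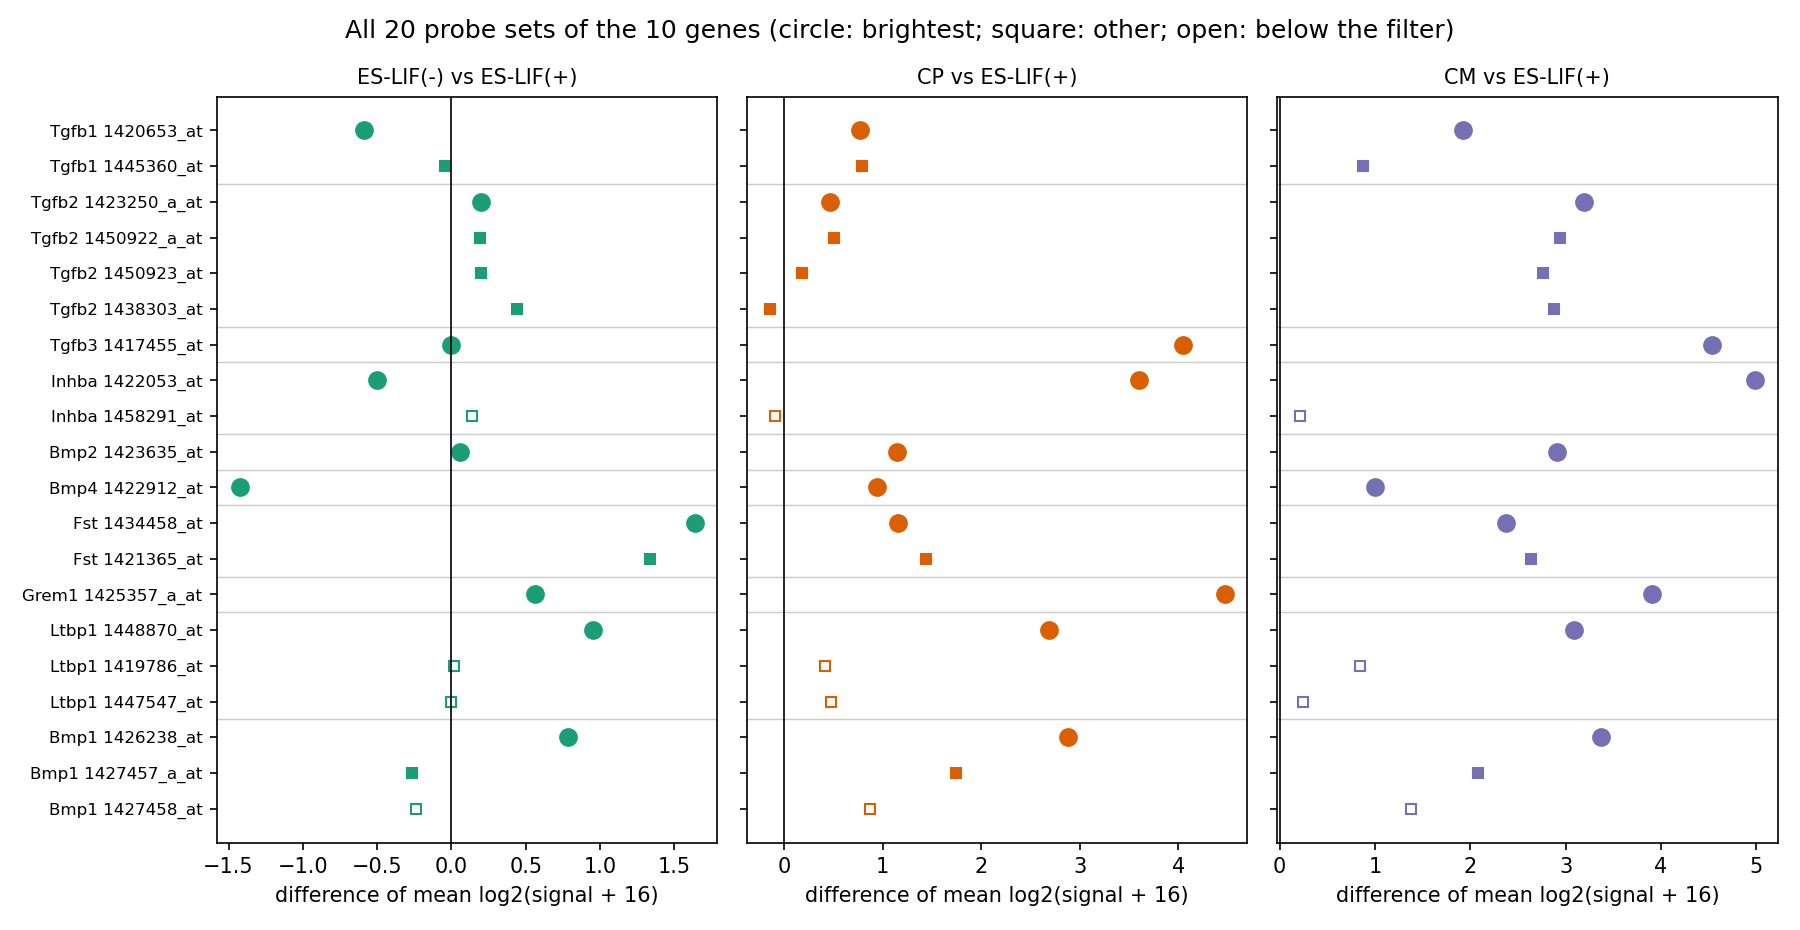
Difference of mean log2(signal + 16) from ES-LIF(+) for each of the 20 probe sets, in ES-LIF(-), CP and CM. Circles mark the brightest probe set of a gene, squares its others, and open symbols those below the filter, where the second Inhba probe set lies near 0 in each comparison.

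Over the 12 arrays, pairs within the set correlated most closely for Bmp1 and Ltbp1 (Pearson r = 0.981), Bmp1 and Tgfb3 (0.948) and Tgfb3 and Grem1 (0.945), and least for Bmp4 and Fst (0.124). Since the arrays form 4 stages, these values describe the shared course and carry no test. The tested genes nearest to Tgfb2 were Tnnc1, the troponin C of cardiac muscle, and Sln, sarcolipin of the atrial sarcoplasmic reticulum (both 0.991). Nearest to Grem1 were Timp3, a matrix-bound inhibitor of metalloproteases (0.993), and the Wnt receptor gene Fzd8 (0.991). Bmp4 lay closest to Nid1, a basement membrane linker protein, and Kifc3, a kinesin (both 0.975), Bmp2 to the transcription factor gene Foxc2 and the mitochondrial fusion gene Mfn2 (both 0.978), and Fst to Hip1 (0.974) and Setd7 (0.964). For Tgfb3 the nearest were Mbd2 (0.991) and Vgll3 (0.989), for Inhba Trim3 (0.990) and Myo1c (0.987), for Tgfb1 Asb8 (0.9875) and Orai1 (0.985), for Ltbp1 Yipf3 (0.989) and Itm2c (0.987), and for Bmp1 Grina and Snx33 (both 0.991).

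Markers of several cell types were counted against ES-LIF(+) as well. Among all tested genes, 18.9% were called higher and 13.4% lower in CP, and 25.8% and 24% in CM. Counts are of the tested markers, while sums take every marker of a list on the array. The 16 cardiomyocyte markers were all called higher in CM against ES-LIF(+), and their summed signal was 209553 to 236407 in CM, against 1753 to 1868 in ES-LIF(+). In CP, 6 of the 16 were higher and 1 lower, with a sum of 3790.2 to 4101. All 12 fibroblast and mesenchyme markers were called higher in CP and in CM, with sums of 142567 to 155654 in CP and 85366 to 94062 in CM, against 12055 to 15670 in ES-LIF(+). The sum of that list read higher in CP than in CM, as did those of the mesothelium and epicardium list and the pluripotency list. Grem1 also had a higher mean in CP, a difference that was not called. In CM against CP, 9.14% of all tested genes were called higher and 10.5% lower. Of the 12 fibroblast and mesenchyme markers, 6 were called lower and 1 higher in CM against CP. Higher calls in CM against CP covered 16 of 16 cardiomyocyte, 6 of 7 smooth muscle, 3 of 6 endothelial and 2 of 3 erythroid markers. Mesothelium and epicardium markers had 2 of 7 higher and 2 lower there, and extraembryonic endoderm markers 1 of 6 higher and 2 lower. Pluripotency markers were lower for 9 of 9, and 0 of 4 macrophage markers were called. Of the 10 genes, Tgfb1, Tgfb2, Inhba, Bmp2 and Fst were called higher in CM than in CP. Smooth muscle markers were higher for 6 of 7 in CP and 7 of 7 in CM, with sums of 30396 to 34553 in CP and 66220.0 to 74408 in CM, against 4245 to 5399 in ES-LIF(+). Of the 9 pluripotency markers, 6 were lower in CP and 9 in CM, and 4 were lower in ES-LIF(-), where 3.68% of all tested genes were. Their sums were 65246 to 70387 in ES-LIF(-), 67444 to 74164 in CP and 19070 to 26669 in CM, against 89298 to 93816 in ES-LIF(+). All 9 passed the array median on every array of each stage. Mesothelium and epicardium markers were higher for 5 of 7 in CP and 6 of 7 in CM, with sums of 14258 to 14975 in CP and 9678 to 10695 in CM, against 2597 to 4079 in ES-LIF(+). Extraembryonic endoderm markers were higher for 4 of 6 in both CP and CM, with 1 lower in CM, and sums of 4202 to 4641 in CP and 3349.9 to 5251 in CM, against 1052 to 1373 in ES-LIF(+). Endothelial markers were higher for 3 and lower for 2 of 6 in CP, and higher for 4 and lower for 2 in CM, with sums of 1386 to 1815 in CP and 2240.1 to 2748 in CM, against 1367 to 2028 in ES-LIF(+), and Tie1 was under the array median on all 12 arrays. Macrophage markers were higher for 1 of 4 in CP and 2 of 4 in CM, with sums of 1395 to 1778 in CP and 1926 to 2190.1 in CM, against 934 to 1077 in ES-LIF(+), while Ptprc and Itgam were under the median on all arrays. Erythroid markers were higher for 2 of 3 in CM, and their sum differed widely among the CM arrays, from 798 to 20482, against 147 to 210.2 in ES-LIF(+). With any 1 CM array left out, 10 of the 10 genes were still called higher in CM against ES-LIF(+). The part of these cell types in the levels of the 10 genes was not tested.

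Other genes of the pathway were counted in lists outside the 10, against ES-LIF(+). Of 15 tested ligand genes, 2 were higher and 2 lower in CP, where 18.9% and 13.4% of all tested genes were, and 5 higher and 4 lower in CM, where 25.8% and 24% were, so their shares lay near those of all genes. In CP, Gdf10, a BMP3-related ligand, rose by 2.55 and Lefty2, a Nodal antagonist of the same family, by 0.81, while Gdf3, a ligand of pluripotent cells, fell by 1.26 and Nodal by 0.73. In CM, Bmp5 rose by 1.90 and Bmp7 by 1.45, while Gdf3 fell by 3.20 and Lefty1 by 2.06. The median difference of this list was 0.24 in CP and 0.22 in CM, where those over all tested genes were 0.04 and 0.06.

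In CP, 18.9% of all tested genes were called higher and 13.4% lower against ES-LIF(+), and in CM 25.8% and 24%. The list medians of 15 tested antagonists and modulators outside the set were 2.045 in CP and 2.66 in CM. Of these genes, 11 were higher and 1 lower in CP, and 12 higher and 1 lower in CM. The small proteoglycan genes Bgn and Dcn, whose products bind TGF-β, led both, with rises of 6.62 and 8.64 in CP and of 5.87 and 4.89 in CM, and Dcn is also one of the mesenchyme markers. The lower gene was Tdgf1, the Nodal co-receptor Cripto and also one of the pluripotency markers, with differences of −0.93 in CP and −2.08 in CM. Of 15 tested latency and activation genes, 11 were higher and 2 lower in CP, and 11 higher and 2 lower in CM, with medians of 1.32 and 2.52. Thbs1, whose product thrombospondin 1 can activate latent TGF-β, rose by 3.90 in CP and 4.42 in CM, and Emilin1, which restrains proTGF-β processing, by 3.53 and 4.04. Ltbp4, a paralogue of Ltbp1, moved the other way from Ltbp1, with −0.97 in CP and −1.89 in CM, and the procollagen protease enhancer gene Pcolce2 had −1.28 and −1.89.

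Of 14 tested receptor and co-receptor genes, 7 were higher and 0 lower in CP, and 7 higher and 2 lower in CM. The shares higher and lower among all tested genes were 18.9% and 13.4% in CP, and 25.8% and 24% in CM. The medians of the receptor list were 0.47 in CP and 0.555 in CM. Tgfbr2, the type II receptor that binds TGF-β, rose by 3.96 in CP and 2.88 in CM, with a mean signal of 3535 in CP and 1667 in CM, against 215 in ES-LIF(+). The co-receptor betaglycan gene Tgfbr3 rose by 3.23 in CP, and the BMP co-receptor gene Rgma by 2.498 in CM, while Acvr2b fell by 1.51 and Bmpr1b by 0.86 in CM. Of 15 tested SMAD response genes, 8 were higher and 1 lower in CP, and 8 higher and 2 lower in CM, with medians of 0.61 and 1.43. The inhibitory SMAD gene Smad6 rose by 2.91 and Msx2 by 2.69 in CM, Pmepa1 by 2.66 and Ltbp2 by 2.02 in CP. Ltbp2 is also one of the latency genes and counts in both lists. Id2, a target of BMP signalling, had −1.19 in CP and −0.68 in CM, and Tgif1 had −1.37 in CM, each called lower. The other Id genes of the list did not fall: Id3 was called higher, by 1.12 in CP and 1.75 in CM, and Id1 and Id4 were not called in either. Without LIF, the lists had 0 to 2 genes higher and 0 to 3 lower, where 4.04% and 3.68% of all tested genes were. The latency list had 3 of 15 lower and 1 higher, the SMAD response list 3 of 15 lower and 2 higher. Receptor genes had 2 of 14 higher and 0 lower.

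**Figure D4:**
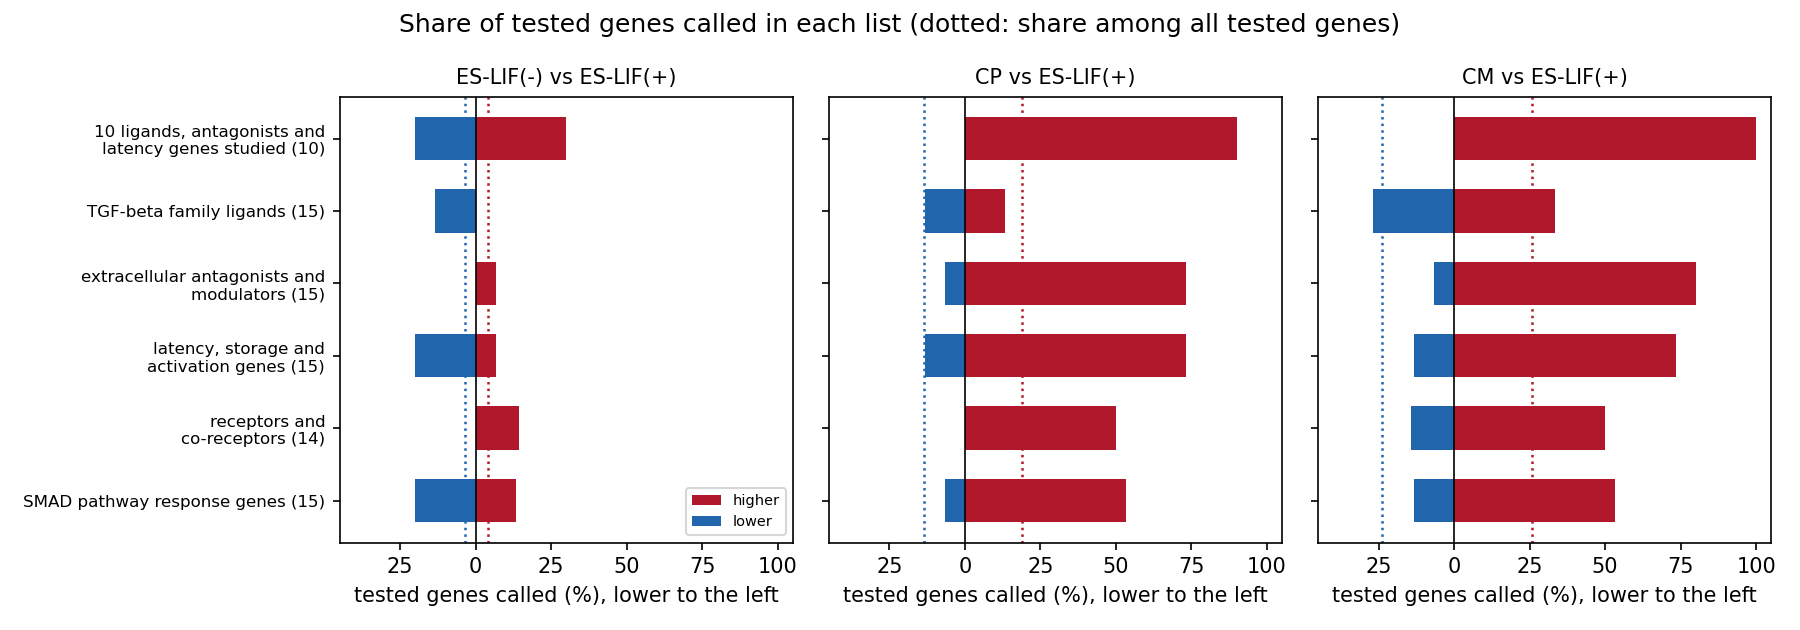
Share of the tested genes of each list called higher (to the right of 0) and lower (to the left) in ES-LIF(-), CP and CM against ES-LIF(+), in percent, with the number tested in parentheses and dotted lines at the shares among all tested genes. The antagonist and latency lists reach 11 of 15 higher in CP, and the ligand list 2 of 15.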

How the data were processed

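The 12 samples are Affymetrix Mouse 430 2.0 arrays, 3 per stage, grouped by their labels. The deposited intensity values were made by the authors with MAS5 and scaled per array, on a linear scale, and were used without further scaling. The build and annotation behind the arrays are not given in the sources used here, and gene names come from the platform annotation, in which 34945 probe sets name 1 gene, 932 several and 9160 none. After removal of 64 control probe sets, 45037 remained, and the 26083 whose signal passed the array median on at least 3 arrays were tested. Values were log2(signal + 16), fitted over all 12 arrays with limma 3.58.1 (lmFit, eBayes with trend) under R 4.3.3, with Benjamini-Hochberg adjustment over all tested probe sets. A gene is its brightest single-gene probe set.

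The number of arrays limits the precision, and p values measure the spread among 3 samplings of 1 cell line. The procedure was tested on simulated data. The genes and lists were chosen with earlier results of these data known. The genes named are the 10, the 2 tested genes most like each over the 12 arrays, and, of each pathway list, the 2 largest called rises and falls in CP and in CM against ES-LIF(+). Outside that rule, Inhbb was chosen after its values were seen. Id1, Id3 and Id4 were also named outside it, as the other Id genes beside Id2. Tie1, Ptprc and Itgam were named as markers under the median on all arrays. Alternatives covered scaling, the added constant, the filter, the test, the fold threshold, the arrays fitted, the probe set used, a block for the replicate number, and each array left out in turn.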

Additional observations from a re-analysis of the deposited data

How the results depend on the processing

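Of 972 values of single genes recomputed under the alternatives, 938 kept their direction and, where a p was given, their side of the threshold. A log2 ratio of mean signals carried no p, so its values were judged by direction alone. The plain one-way analysis of variance gave its 4-stage p to every pair, so it did not test single pairs. Both are among the values that follow. Among 706 from called differences, 21 lost the call and 1 turned, and among 266 from differences not called, 2 gained a call and 10 changed sign. The number of genes lower in ES-LIF(-) than in ES-LIF(+), 2 in the main setting, was 1 under quantile normalization, an added constant of 64, no filter, no variance trend, a fold above 2, a fit of these 2 stages alone or the mean over probe sets, and 0 with the second probe set. The number higher there, 3, was 1 under a fold above 2, the mean over probe sets or the second probe set. Only 4 genes (Tgfb1, Tgfb2, Fst and Bmp1) have a tested second probe set, so its counts are out of 4 and lower by construction. Of these, 3 were higher in CP and 4 in CM against ES-LIF(+), 2 were higher in CM against CP, and 4 passed the F test. Leaving out single arrays gave 1 to 2 genes lower and 2 to 3 higher in ES-LIF(-), 8 to 10 higher in CP, 10 in CM, and 4 to 5 higher in CM against CP.

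The values that changed sign belong to differences that were not called, apart from that of Bmp1. In ES-LIF(-) against ES-LIF(+), Bmp1 was −0.26 with its second probe set and Tgfb3 0.0403 with a constant of 1. Leaving out 1 array gave −0.15 to 0.26 for Bmp2, −0.42 to 0.35 for Tgfb3, −0.0046 to 0.33 for Tgfb2 and −0.96 to 0.15 for Inhba in that comparison, and −0.0328 to 0.11 for Bmp4 in CM against CP. The cause was not tested.

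Replicate numbers did not pair the samples: the deviations of same-numbered arrays correlated between −0.047 and 0.0954 over 18 pairs, and 0 exceeded 0.1. A fit with the number as a replicate block changed none of the calls of the 10 genes, with 3 higher and 2 lower in ES-LIF(-), 9 higher in CP, 10 in CM and 5 in CM against CP. Signals near the array median limit the folds of Bmp2, Tgfb3, Inhba and Grem1.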
